A study of Mus musculus with 30 samples.

Results

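The genes followed here encode enzymes and complexes that write, erase and read marks on chromatin or move nucleosomes. Their accessible regions were taken from the authors' atlas of ATAC-seq peaks, in which each peak carries the gene symbol that the authors assigned to it. A peak was kept if that symbol starts with Kdm, Kmt, Hdac, Smarc, Arid or Dnmt, or with Chd, Brd or Tet followed by a digit. This gave 302 of the 38526 peaks, assigned to 77 of 14886 genes. The rule uses the symbols and no measured value, but it was chosen with earlier results of these data known. By the authors' annotation 150 of them (49.7%) are intronic, 77 (25.5%) lie at promoters, 48 (15.9%) are intergenic and 27 (8.9%) are exonic. Over all peaks, introns hold 33.0% and promoters 31.3%. The assignment of a distal peak to a gene is a label and no measurement of which gene the region acts on. A gene can carry many peaks: 24 of the 77 genes have 1 peak, 36 have 2 to 4 and 17 have 5 or more. Chd7 has the most, with 34 peaks over 382.4 kb, followed by Arid1b with 33 over 424.0 kb, Hdac4 with 16 over 219.1 kb and Dnmt3a with 12. Of 84 genes on the lists that sort these families by role, 9 carry no peak here: Kdm1b, Kdm5d, Kmt2b, Smarcc2, Smarca1, Arid4b, Dnmt3l, Brd2 and Brd9. The symbols of 2 antisense genes, Brd3os and Dnmt3aos, also match, with 3 peaks between them, and ATAC-seq reads carry no strand that would separate them from the genes they overlap.

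The cells were mouse natural killer (NK) cells from spleen, kept in culture for 5 days in small amounts of IL-2 and IL15:IL15Ra before the experiment. The wild-type (WT) cells were from C57BL/6J mice. The other genotype, called KO here, was GzmbCre Ptger2-/- Ptger4 fl/fl: these mice lack Ptger2 (the prostaglandin receptor EP2) throughout and lose Ptger4 (the receptor EP4) where the granzyme B promoter has driven Cre. The WT cells carry no Cre, so its presence and the loss of the receptors cannot be told apart. Cells were left untreated or given prostaglandin E2 (PGE2) at 100 ng/ml for 5 h, and in the stimulated groups the activating receptor NK1.1 was engaged during the final 4 of these hours, 1 h into treatment. Unstimulated WT cells gave 4 untreated and 3 PGE2-treated libraries, and unstimulated KO cells gave 3 untreated and 4 PGE2-treated libraries. Each of the 4 stimulated groups (WT or KO, untreated or with PGE2) had 4 libraries, which makes 30 in all. Whether replicates are separate animals or cultures is not stated in the labels, and a p-value therefore measures only how far these samples spread, which could be technical. Conditioned medium, which the series description names, was not analysed here.

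Values are read counts per peak that the authors normalised by library, called normalised counts below, and means are given ± SD over the libraries of a group. Reads in peaks came to 8444350 to 20153816 per library, and in the stimulated KO groups replicates 1 and 2 had up to 9963815 and replicates 3 and 4 at least 14611688. In the untreated unstimulated KO group replicate 2 had 9241985, and replicates 3 and 4 had 20097949 and 17684832. At each of the 2 targeted genes a peak was lower in every KO library than in any WT library. The promoter peak of Ptger2 had 559.8 to 1109 normalised counts in WT libraries and 83.6 to 247 in KO libraries, and the exonic peak of Ptger4 had 434 to 685 and 56.2 to 152. The other Ptger4 peaks overlapped between the genotypes, among them the promoter peak (822 to 1455 in WT and 901 to 1605 in KO libraries). All 10 NK marker genes carried peaks, with a summed level of 26962 to 34430 per library over 53 peaks. In untreated unstimulated cells this sum was 30399 to 34118 in WT and 27054 to 28432 in KO libraries, without overlap. Of the 53 peaks, 3 were called lower and 0 higher in these KO cells. Under the other conditions the sums of the genotypes overlapped. Among markers of other cells, Ms4a1, Cd79a, Cd79b, Cd3g, Cd4, Cd8a, Cd8b1, Lyz2, Gata1 and Hbb-bt carried no peak, and others did. The 13 peaks of 6 of 7 myeloid marker genes summed to 3374 to 4199 normalised counts per library. The 3 peaks of 3 of 7 T cell genes summed to 1618 to 2131, and the 4 peaks of 3 of 5 erythroid genes to 627 to 810.2. The sums cover unlike numbers of peaks, so their sizes do not compare cell types. In stimulated WT cells the untreated and PGE2-treated libraries did not overlap in these sums. They were 3380 to 3836 and 3859 to 4199 (myeloid), 1865 to 2111 and 1666 to 1814 (T cell), 696 to 762 and 627 to 668 (erythroid). Unstimulated WT groups and KO groups overlapped. The 4 peaks of the B cell markers that had any (2 of 6 genes) summed to 524 to 601 in untreated unstimulated WT libraries, 354 to 416 in untreated stimulated WT, 505 to 573 in PGE2-treated stimulated WT and 568 to 643 in PGE2-treated unstimulated WT libraries. The part of these marker differences in the results below was not tested. In bulk samples fewer cells with an open site and less opening per cell cannot be told apart.

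Histone tails can be acetylated or methylated, and DNA can be methylated at CpG dinucleotides. Dnmt3a and Dnmt3b add new DNA methylation, Dnmt1 copies it at replication, and the Tet enzymes oxidise it towards removal. Histone deacetylases (Hdac genes) remove acetyl groups, Kdm enzymes remove and Kmt enzymes add methyl groups on lysines, and BET proteins such as Brd3 read acetylated histones. SWI/SNF complexes (Smarc genes, Arid1a, Arid1b, Arid2) and the Chd proteins use ATP to move nucleosomes. In NK and T cells such factors are known to set which effector genes stay poised for rapid use after a receptor is engaged. EP2 and EP4 both raise cyclic AMP, a second messenger that restrains lymphocyte activation.

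RefSeq promoter windows, which run from 250 bases before a transcription start to 50 after it, were matched to the peaks: 58 of the 77 genes have a window, and 56 of the 302 peaks, of 52 genes, overlap one by at least 1 base. Those of 4 genes are shown, on GRCm38.p6 (mm10), because their promoter peaks turned out to move the most or in opposite directions. The promoter of the antisense gene Dnmt3aos (chr12:3862195-3862494, minus strand), inside the Dnmt3a gene, opened most on stimulation. The promoters of Dnmt3a (chr12:3806730-3807029, plus strand) and Tet2 (chr3:133544341-133544640, minus strand) opened with stimulation and closed with PGE2, and that of Arid5a (chr1:36307483-36307782, plus strand) did the reverse. Capitals mark matches, on either strand, to TGANTCA (the AP-1 motif), TGACG (the shared part of cyclic AMP response elements) and GGGANNNNCC (an NF-kB motif).
Dnmt3aos: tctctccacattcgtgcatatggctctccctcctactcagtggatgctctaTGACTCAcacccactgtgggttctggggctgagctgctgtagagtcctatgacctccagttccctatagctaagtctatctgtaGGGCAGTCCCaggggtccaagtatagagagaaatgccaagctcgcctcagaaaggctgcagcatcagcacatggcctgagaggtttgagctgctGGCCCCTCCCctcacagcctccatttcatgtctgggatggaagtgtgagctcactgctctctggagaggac
Dnmt3a: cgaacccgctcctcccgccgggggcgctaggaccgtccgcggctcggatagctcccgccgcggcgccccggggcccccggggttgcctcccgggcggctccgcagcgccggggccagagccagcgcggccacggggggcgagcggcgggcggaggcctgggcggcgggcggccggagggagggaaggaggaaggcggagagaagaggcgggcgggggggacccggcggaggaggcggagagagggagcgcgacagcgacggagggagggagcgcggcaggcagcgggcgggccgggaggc
Tet2: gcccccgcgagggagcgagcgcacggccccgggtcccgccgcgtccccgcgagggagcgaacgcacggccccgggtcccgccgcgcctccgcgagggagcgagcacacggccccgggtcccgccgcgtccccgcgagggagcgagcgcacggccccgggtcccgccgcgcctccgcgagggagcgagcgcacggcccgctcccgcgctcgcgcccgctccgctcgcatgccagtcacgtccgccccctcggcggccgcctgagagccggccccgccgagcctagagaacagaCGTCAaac
Arid5a: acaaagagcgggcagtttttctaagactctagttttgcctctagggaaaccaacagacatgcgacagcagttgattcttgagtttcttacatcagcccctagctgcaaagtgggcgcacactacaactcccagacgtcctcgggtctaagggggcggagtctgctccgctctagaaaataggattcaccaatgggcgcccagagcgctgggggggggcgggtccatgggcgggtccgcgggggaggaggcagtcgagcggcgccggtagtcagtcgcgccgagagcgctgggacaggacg
The Dnmt3aos window holds 1 AP-1 match and 2 NF-kB matches, the Tet2 window 1 match to TGACG, and those of Dnmt3a and Arid5a none of the motifs searched. Among all 32851 RefSeq windows, 7.8% hold TGANTCA, 20.8% TGACG, 20.7% GGGANNNNCC and 23.4% GGAAAA (an NFAT core). Of 81 windows of the chromatin genes, 9 (11.1%) hold TGANTCA, 22 (27.2%) TGACG, 29 (35.8%) GGGANNNNCC and 18 (22.2%) GGAAAA. The full element TGACGTCA occurs in 1.8% of all windows and in 0 of these 81. Overlapping matches were counted under each motif. A match is a run of letters and no evidence of binding.

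Levels per kilobase were highest at promoters in the median and spread widely within each kind of region. Per kilobase of peak, the mean level over all 30 libraries had a median of 417 normalised counts at promoters, 258 at exonic, 134 at intronic and 124 at intergenic peaks. The most open promoter per kilobase was that of Hdac4 (2328) and the least open that of Hdac9 (65.7), both class IIa deacetylases. Distal regions moved more than promoters: the median size of the log2 change on stimulation of WT cells was 0.155 at promoters, 0.501 in introns, 0.566 in exons and 0.463 between genes. For PGE2 during stimulation those medians were 0.115 at promoters and 0.391 in introns. The atlas shows the same order: stimulation of WT cells was called at 41.2% of all promoters and 63.2% of all distal peaks. Among the chromatin gene peaks these shares were 29.9% and 62.7%. The part that lower levels at distal peaks have in this was not tested.

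NK1.1 stimulation of untreated WT cells opened 72 chromatin gene peaks and closed 92, by limma's moderated test with adjusted p under 0.05 over all peaks. These are 23.8% and 30.5% of the 302, and over all peaks 28.9% were called higher and 27.4% lower, so the shares are near the background. In KO cells the same stimulation opened 72 and closed 83, against 28.1% and 26.4% of all peaks. With quantile normalisation, which moves the median log2 change of all peaks in KO cells from -0.03 to -0.13, the KO split was 62 higher and 108 lower. Of 77 promoter peaks 7 opened and 16 closed in WT cells, where 19.5% and 21.7% of all promoters did. By gene, 11 of the 77 had higher calls only, 20 had lower calls only, 22 had both and 24 had none. The difference between genotypes in the stimulation effect was called at 0 of the 302 peaks by limma, with 11 at an unadjusted p under 0.05. Over all peaks it was called at 0.00779%, and edgeR and DESeq2 called it at 0 of the 302, with 10 and 9 at an unadjusted p under 0.05.

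PGE2 given with stimulation changed 122 chromatin gene peaks in WT cells: 63 were higher and 59 lower than in stimulated cells without PGE2. Over all peaks 20.2% were called higher and 20.4% lower, and the members' shares of 20.9% and 19.5% stand close to that. At promoters PGE2 lowered 13 of 77 and raised 3, where 19.9% and 7.1% of all promoters were called. In stimulated KO cells PGE2 changed 0 of the 302 by limma, edgeR or DESeq2 (at an unadjusted p under 0.05 they gave 9, 8 and 9), against 0.0026% of all peaks. The difference in the PGE2 effect between WT and KO stimulated cells was itself called at 68 peaks, 36 higher in WT and 32 lower, against 10.2% and 9.8% of all peaks. Stimulation in WT and PGE2 during stimulation share the untreated stimulated WT libraries, so their values are set side by side below and not correlated.

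**Figure D1:**
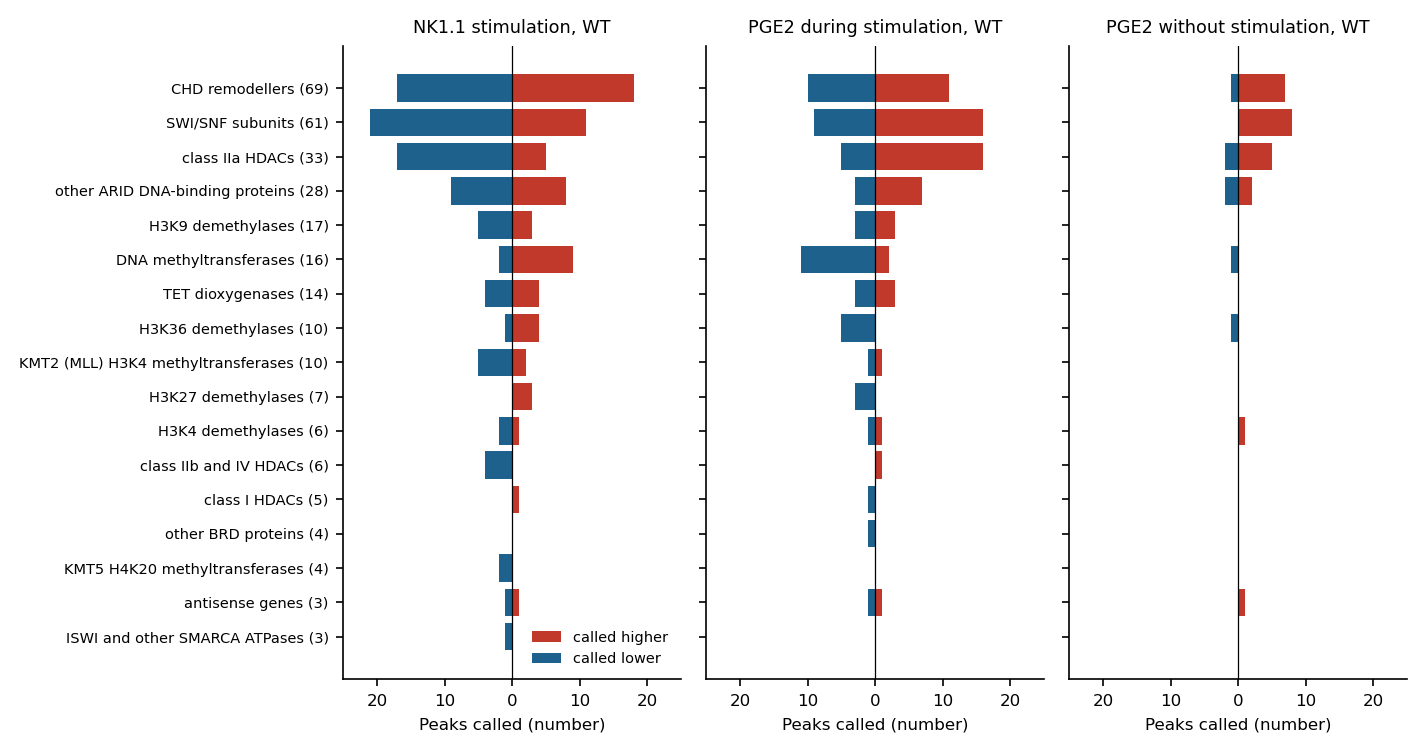
Number of chromatin gene peaks called higher (to the right, red) or lower (to the left, blue) by limma at adjusted p under 0.05, by role list, with the number of peaks per list in brackets, for stimulation, PGE2 during stimulation and PGE2 without stimulation in WT cells. The DNA methyltransferase list had 9 higher and 2 lower on stimulation and 2 higher and 11 lower with PGE2; the class IIa deacetylase list had 5 higher and 17 lower, then 16 higher and 5 lower.

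The comparison of stimulation in untreated KO cells with PGE2 in stimulated WT cells uses no common library. Of the 72 peaks that stimulation opened in KO cells, 62 (86.1%) were also called higher in WT cells, and PGE2 lowered 43 (59.7%) and raised 2 in WT cells, with a median log2 change of -0.53. Over all peaks opened in KO cells, 90.5% were called higher in WT and 56.8% were lowered by PGE2. Of the 83 peaks that stimulation closed in KO cells, 71 (85.5%) were called lower in WT, and PGE2 raised 36 (43.4%) and lowered 0, with a median of 0.27. Over all peaks closed in KO cells the shares were 83% and 46.5%. In both directions the shares of the chromatin gene peaks lay close to those of the atlas.

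**Figure D2:**
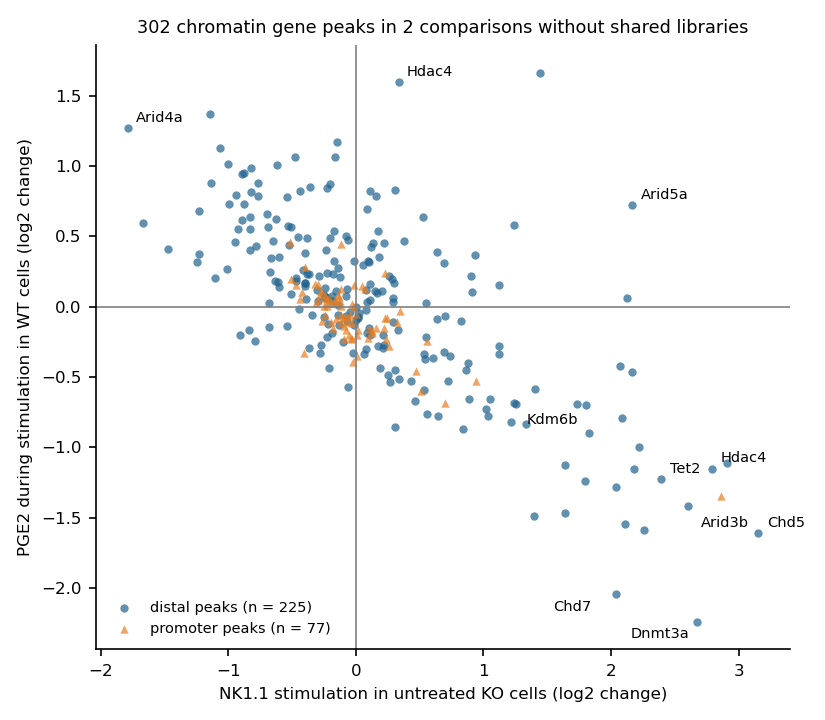
Each point is 1 of the 302 peaks: log2 change on NK1.1 stimulation in untreated KO cells (horizontal) against log2 change with PGE2 in stimulated WT cells (vertical), for 225 distal and 77 promoter peaks. Peaks far to the right mostly lie below 0, among them those of Dnmt3a, Chd5 and Tet2, and the intergenic peak of Arid5a is an exception above 0.

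Most calls among the DNA methyltransferase peaks lay in Dnmt3a, an enzyme that sets new DNA methylation and holds 12 of the 16 peaks on that list. Of its 12 peaks, which with the Dnmt3aos promoter span 91.7 kb, stimulation opened 9 in WT and 9 in KO cells and closed 0, and PGE2 during stimulation lowered 11 and raised 0 in WT cells. On the whole list of 16 peaks the counts were 9 higher and 2 lower, with a median log2 change of 0.55, and then 2 higher and 11 lower, with a median of -0.54. Over all peaks those medians were -0.02 and -0.01, with 28.9% called higher and 27.4% lower, then 20.2% and 20.4%. Without the 13 peaks of Dnmt3a and Dnmt3aos, stimulation opened 62 of 289 peaks and PGE2 lowered 47.

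The Dnmt3a promoter peak (chr12:3806018-3809018) had 827, 694, 650.0 and 660.4 normalised counts in the 4 untreated unstimulated WT libraries, 1058, 859, 1049 and 986 after stimulation and 576, 655, 700.1 and 680.5 after stimulation with PGE2. The stimulated libraries stood above both other groups without overlap, with log2 change 0.48 ± 0.10 (SE), adjusted p = 6.95e-05 for stimulation and -0.60 ± 0.10, adjusted p = 6.10e-06 for PGE2. Distances are given between peak centres, negative towards lower coordinates. Inside the gene, an exonic peak 27.5 kb from the centre of the promoter peak (chr12:3833985-3836119) had 336, 346, 391 and 369 counts without stimulation, 1622, 1449, 1511 and 1451 with it and 669, 644, 591 and 570.2 with PGE2 added. These means of 360.4 ± 24.5, 1508 ± 81.3 and 618.5 ± 45.8 (n = 4 each) amount to log2 change 2.06 ± 0.08 (SE), adjusted p = 1.27e-22 for stimulation and -1.29 ± 0.08, adjusted p = 1.50e-15 for PGE2. The stimulated KO libraries stayed high with PGE2, at 1665, 1491, 1548 and 1562 without it and 1429, 1476, 1456 and 1335 with it, a log2 change of -0.14 ± 0.08, adjusted p = 0.999. The PGE2 effect differed between the genotypes by -1.15 ± 0.11, adjusted p = 1.90e-09 (WT minus KO).

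The largest PGE2 change in the gene was at a second exonic peak, 65.2 kb from the promoter peak (chr12:3872252-3873240). It was nearly shut without stimulation, at 28.3, 27.2, 18.7 and 28.7, rose to 227, 219.6, 208 and 210.0 with it and stood at 50.7, 42.4, 39.7 and 47.7 with PGE2. The log2 changes were 3.04 ± 0.17, adjusted p = 1.56e-17 and -2.24 ± 0.17, adjusted p = 6.65e-13. A neighbouring intronic peak at 63.8 kb (chr12:3870777-3871808) went from 169 ± 23.5 to 847 ± 102 and, with PGE2, 281 ± 34.1, whereas stimulated KO cells with PGE2 held 884 ± 67.4 (n = 4 each). Only a few kilobases away, the intronic peak at 61.2 kb (chr12:3868188-3869167) was not called on stimulation (-0.13 ± 0.11, adjusted p = 0.285), so adjacent regions of 1 gene did not move alike. The 3 intronic peaks at 16.3, 25.3 and 38.6 kb rose on stimulation by log2 2.29, 2.33 and 3.07 and changed by -1.15, -1.001 and -1.11 with PGE2. The promoter of Dnmt3aos, 54.5 kb along (chr12:3861369-3862712), rose from 75.6 ± 11.1 to 556 ± 46.7 and was 220.2 ± 40.9 with PGE2 (log2 2.87 ± 0.19, adjusted p = 9.77e-16, then -1.35 ± 0.19, adjusted p = 3.44e-07).

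1 Dnmt3a peak was also called for PGE2 without stimulation, the intronic peak at 48.5 kb (chr12:3855439-3856646). Its 4 untreated unstimulated WT libraries had 471, 442, 377 and 373 counts and the 3 PGE2-treated ones 285, 249.5 and 310.2, without overlap (log2 -0.56 ± 0.10, adjusted p = 1.39e-04). In KO cells the change was -0.12 ± 0.10, adjusted p = 1. The difference between genotypes in the PGE2 effect without stimulation was called at 0 of the 12 Dnmt3a peaks, this one included. With stimulation the same peak rose to 1379 ± 148 in WT cells, and with PGE2 it was 498 ± 41.5 (log2 -1.46 ± 0.10, adjusted p = 2.26e-14). At the ends of the gene the changes were small: the intronic peak at 5.7 kb had a log2 change of -0.40 ± 0.13, adjusted p = 0.0104 with PGE2 during stimulation. The call was lost without untreated stimulated WT replicate 4 (adjusted p = 0.0513). The intronic peak at 84.1 kb gave -0.33 ± 0.11, adjusted p = 0.0113. Leaving out PGE2-treated stimulated WT replicate 3 (adjusted p = 0.0562) ended the call. The last, an exonic peak at 89.8 kb, gave -0.48 ± 0.18, adjusted p = 0.0315. It was not called without any 1 of 4 of the 8 libraries compared (adjusted p = 0.0523 to 0.133).

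**Figure D3:**
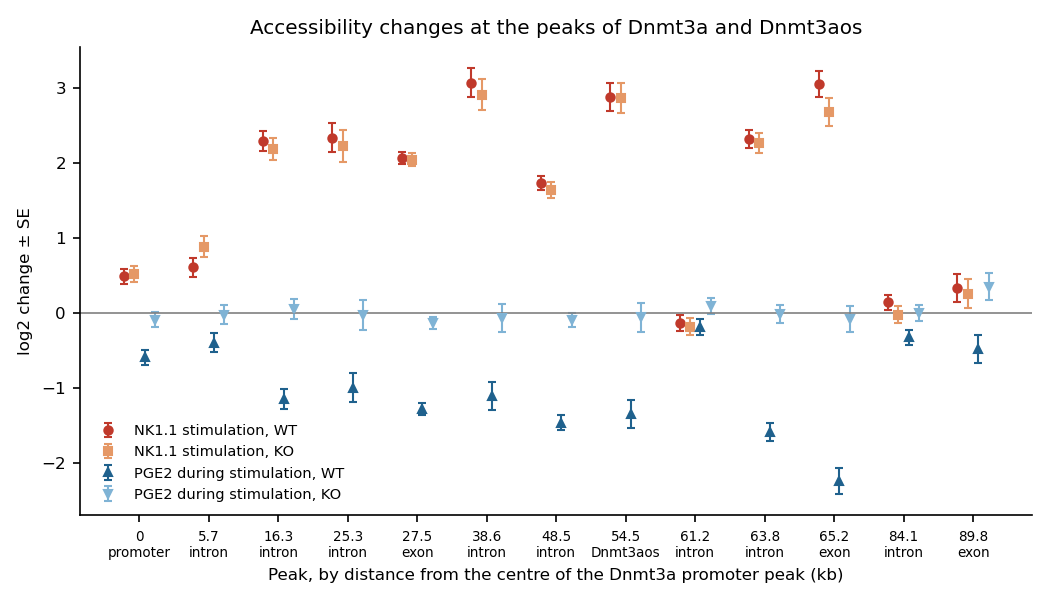
Log2 change (± SE) at each peak of Dnmt3a and at the Dnmt3aos promoter, ordered by distance in kb from the centre of the Dnmt3a promoter peak, for stimulation and for PGE2 during stimulation in WT and KO cells. Stimulation values of both genotypes lie together, up to 3.07 in WT cells, while PGE2 values fall as low as -2.24 in WT cells and lie near 0 in KO cells.

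Dnmt3b, the other de novo methyltransferase, had an intergenic peak (chr2:153699794-153700558) that moved the other way. Untreated WT libraries had 146, 116, 144 and 106 without stimulation, 54.6, 51.5, 40.4 and 36.4 with it and 87.5, 62.5, 105 and 86.0 with PGE2 added; the stimulated libraries were below all others. The log2 changes were -1.47 ± 0.18, adjusted p = 4.28e-09 and 0.88 ± 0.18, adjusted p = 1.01e-04. The promoter of Dnmt1, the maintenance enzyme, changed by log2 -0.27 on stimulation and 0.24 with PGE2, both called.

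The Tet list, the enzymes that oxidise methylated cytosine, had 4 peaks higher and 4 lower of 14 on stimulation of WT cells, and 3 higher and 3 lower with PGE2. Of all peaks 28.9% and 27.4% were called on stimulation and 20.2% and 20.4% with PGE2. By gene, Tet2 had 3 higher and 0 lower of 6 peaks on stimulation and 0 higher and 3 lower with PGE2, whereas Tet3 had 1 higher and 2 lower on stimulation. An intergenic Tet2 peak 19.4 kb from its promoter peak (chr3:133563277-133564327) had 20.4, 38.9, 45.2 and 22.7 counts in untreated unstimulated WT libraries, 235, 226, 266 and 268 after stimulation and 114, 105, 93.8 and 109 with PGE2. The groups did not overlap, with log2 3.003 ± 0.19, adjusted p = 1.76e-16 and -1.23 ± 0.19, adjusted p = 1.37e-06. In stimulated KO cells PGE2 left it at 217 ± 35.8 against 246 ± 20.5 (log2 -0.19 ± 0.19, adjusted p = 0.999). The Tet2 promoter peak (chr3:133543241-133545633) rose from 475 ± 44.1 to 729 ± 90.1 and was 453 ± 59.9 with PGE2, and a further peak at 39.0 kb changed by log2 0.65 and -0.87. The remaining Tet2 peaks, at -65.2, 69.9 and 214.0 kb, were not called in WT cells in either comparison.

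**Figure D4:**
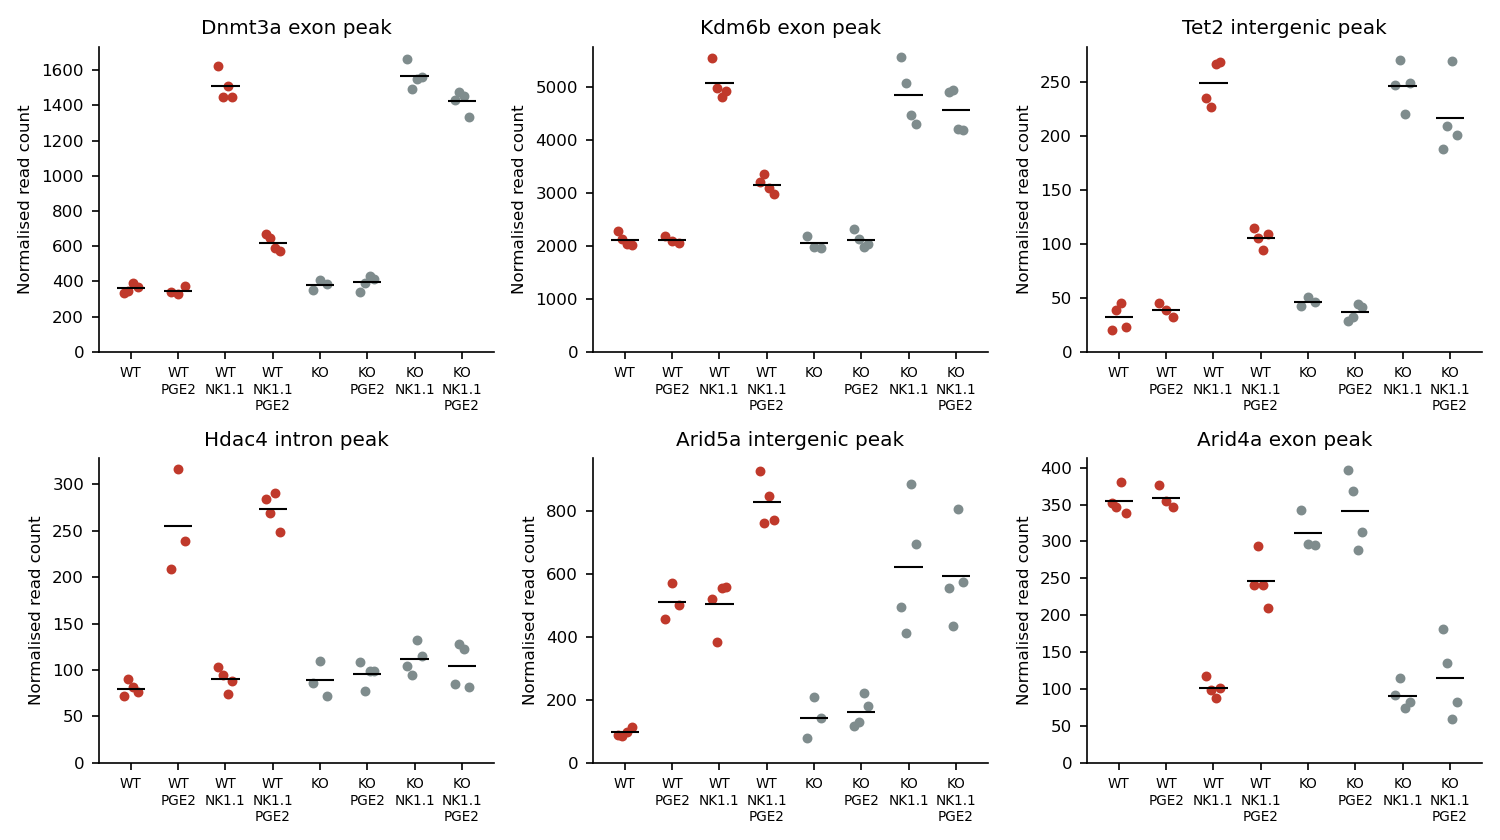
Normalised counts of 6 peaks in every library (points), by group, with bars at group means from 0. The exonic peaks of Dnmt3a and Kdm6b and the intergenic peak of Tet2 are high in stimulated groups and lower again in stimulated WT cells with PGE2; the Hdac4 intron is high in both PGE2-treated WT groups, the Arid5a peak is low only in untreated unstimulated WT cells and both unstimulated KO groups, and the Arid4a exon is low in stimulated groups.

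Among histone demethylases, the H3K27 list (Kdm6a and Kdm6b, which remove the Polycomb mark) had 3 of 7 peaks higher and 0 lower on stimulation in each genotype, and 0 higher and 3 lower with PGE2. For this and the other demethylase lists, the shares of all peaks in WT cells were 28.9% higher and 27.4% lower, then 20.2% and 20.4%. All 3 called peaks of the H3K27 list belong to Kdm6b. Its large exonic peak (chr11:69408450-69412152) had 2284, 2119, 2040.2 and 2004 counts in unstimulated, untreated WT libraries, 5532, 4979, 4813 and 4926 after stimulation and 3195, 3348, 3088 and 2977 with PGE2. The stimulated WT libraries without PGE2 were all above those with it, which were all above the unstimulated ones (log2 1.26 ± 0.08, adjusted p = 3.07e-16, then -0.68 ± 0.08, adjusted p = 8.87e-09). KO libraries with stimulation had 5568, 5072, 4466 and 4297, and 4899, 4932, 4194 and 4179.8 with PGE2, which overlap. The flanking peaks of Kdm6b, at -8.8 and 9.3 kb, changed by log2 0.51 and 1.06 on stimulation and by -0.59 and -0.45 with PGE2.

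The H3K36 list (Kdm2a, Kdm2b, Kdm8) had 4 of 10 peaks higher and 1 lower on stimulation and 0 higher and 5 lower with PGE2. Kdm2b, which also recruits a Polycomb complex to CpG islands, accounted for 3 of the higher and 4 of the lower calls. Its exonic peak (chr5:122948941-122949617) went from 211, 188, 168 and 168 to 596, 579, 579 and 490.2 with stimulation and stood at 324, 315, 313 and 303 with PGE2. The 3 groups were apart, with log2 1.61 ± 0.10, adjusted p = 1.25e-16 and -0.83 ± 0.10, adjusted p = 1.14e-08. An intronic peak of Kdm4c, an H3K9 demethylase, was almost shut in unstimulated cells (9.70 ± 4.40) and reached 72.9 ± 17.1 with stimulation and 24.5 ± 7.62 with PGE2 (log2 2.85 ± 0.33, adjusted p = 2.68e-09, then -1.55 ± 0.33, adjusted p = 2.67e-04). The H3K9 list as a whole had 3 higher and 5 lower of 17, then 3 and 3, with an intergenic Kdm4d peak raised by PGE2 during stimulation (log2 1.17 ± 0.25, adjusted p = 2.10e-04).

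Kdm1a (LSD1, an H3K4 demethylase) gave the 1 called peak of its list for PGE2 without stimulation. At its exonic peak (chr4:136569797-136570706) the untreated unstimulated WT libraries had 265, 312, 284 and 296, those with PGE2 444, 453 and 493 and those with stimulation 786, 664, 772 and 729. Both treatments raised it without overlap, by log2 0.68 ± 0.12, adjusted p = 6.14e-05 for PGE2 and 1.35 ± 0.11, adjusted p = 5.32e-13 for stimulation. With both together the level was 607 ± 33.8, below stimulation alone (log2 -0.28 ± 0.11, adjusted p = 0.0429). Leaving out any 1 of 6 of the 8 libraries compared (adjusted p = 0.0671 to 0.11) ended this call. With quantile normalisation (adjusted p = 0.066) it was not called. In unstimulated KO cells PGE2 changed it by -0.08 ± 0.12, adjusted p = 1, and the difference from WT was 0.76 ± 0.17, adjusted p = 0.0035. The H3K4 demethylase list, Kdm1a included, had 1 higher and 2 lower of 6 peaks on stimulation.

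Of the methyltransferases, the KMT2 (MLL) list had 2 higher and 5 lower of 10 peaks on stimulation and 1 higher and 1 lower with PGE2, and the KMT5 list 0 higher and 2 lower of 4, then 0 and 0. Beside these stand 28.9% and 27.4% of all peaks on stimulation and 20.2% and 20.4% with PGE2. An intronic peak of Kmt2e (chr5:23444691-23445973) rose from 49.5, 46.6, 59.9 and 74.0 to 123, 117, 196 and 136 with stimulation and had 87.5, 74.7, 67.3 and 70.1 with PGE2, which overlapped the unstimulated libraries. The log2 changes were 1.29 ± 0.20, adjusted p = 5.98e-07 and -0.90 ± 0.20, adjusted p = 3.14e-04. An intronic peak of Kmt2a rose by 1.99 ± 0.33, adjusted p = 2.62e-06. The promoters of Kmt2a, Kmt2c, Kmt2e, Kmt5b and Kmt5c were all called lower on stimulation, by log2 -0.31, -0.41, -0.28, -0.20 and -0.20.

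The class IIa histone deacetylases, which shuttle between nucleus and cytoplasm on signals and repress MEF2 targets, closed at many intronic sites. Of the 33 peaks of Hdac4, Hdac5, Hdac7 and Hdac9, stimulation of WT cells opened 5 and closed 17, with a median log2 change of -0.47, and PGE2 during stimulation raised 16 and lowered 5, with a median of 0.22. In KO cells stimulation opened 5 and closed 18. The shares of all peaks called higher and lower were 28.9% and 27.4% for stimulation in WT cells and 28.1% and 26.4% in KO cells. They were 20.2% and 20.4% for PGE2 during stimulation. By gene, Hdac4 had 1 higher and 11 lower of 16 on stimulation and 14 higher and 1 lower with PGE2, whereas Hdac7 had 3 higher and 0 lower of 6 and then 0 higher and 3 lower.

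An intronic Hdac4 peak at -116.2 kb from its promoter peak (chr1:92063983-92064993) had 953, 956, 906 and 991 counts in untreated unstimulated WT libraries and 638, 603, 549 and 534 after stimulation. With PGE2 it had 1164, 1311 and 1348 without stimulation and 1236, 991, 1068 and 988 with it. Stimulated libraries without PGE2 were below all the others, and PGE2 raised the level in both states (log2 0.42 ± 0.08, adjusted p = 3.34e-04 unstimulated, 0.88 ± 0.08, adjusted p = 1.83e-11 stimulated, -0.71 ± 0.08, adjusted p = 5.08e-10 for stimulation). Stimulated KO libraries had 543 ± 36.2 without and 634 ± 55.0 with PGE2. A second intronic peak, at -93.9 kb (chr1:92086107-92087415), answered PGE2 but was not called on stimulation. It had 71.4, 90.4, 81.5 and 76.4 untreated and 209, 316 and 239 with PGE2 in unstimulated WT cells, then 103, 94.9, 73.7 and 87.6 and 284, 269, 290.4 and 249 with stimulation. The PGE2 changes in the 2 states, log2 1.64 ± 0.17, adjusted p = 3.87e-09 and 1.60 ± 0.16, adjusted p = 3.46e-10, differed by -0.04 ± 0.24, adjusted p = 0.922, so no difference between states was called. Unstimulated KO libraries had 86.1, 109 and 71.4 untreated and 109, 77.6, 99.1 and 98.8 with PGE2, and the genotypes differed in the PGE2 effect by 1.52 ± 0.25, adjusted p = 5.82e-05.

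Further peaks of Hdac4 went both ways. The exonic peak at -196.0 kb fell with stimulation from 80.8 ± 11.2 to 41.2 ± 15.4 and had 103 ± 6.83 with PGE2 (log2 -1.01 ± 0.21, adjusted p = 6.41e-05, then 1.37 ± 0.21, adjusted p = 1.16e-06). An intronic peak at -111.0 kb likewise changed by -1.35 ± 0.18, adjusted p = 3.01e-08, then 1.01 ± 0.18, adjusted p = 1.32e-05. In contrast, the 1 Hdac4 peak opened by stimulation, an intron at -165.2 kb (chr1:92015042-92016013), rose from 19.6, 12.6, 21.6 and 19.1 to 168, 106, 139.5 and 127 and had 47.7, 55.8, 71.3 and 65.4 with PGE2. Its log2 changes were 2.83 ± 0.24, adjusted p = 1.64e-12 and -1.15 ± 0.24, adjusted p = 2.16e-04.

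At Hdac7, a class IIa enzyme prominent in lymphocytes, an intronic peak at -9.7 kb (chr15:97820998-97822199) had 469.5, 427, 466 and 475 without stimulation, 1103, 974, 889 and 977 with it and 576, 550.0, 608 and 565 with PGE2 as well. The stimulated libraries without PGE2 stood apart from both groups (log2 1.097 ± 0.07, adjusted p = 1.50e-15, then -0.77 ± 0.07, adjusted p = 8.72e-11). A peak at -14.4 kb rose on stimulation (log2 1.39 ± 0.13, adjusted p = 1.53e-11), fell back with PGE2 (-0.70 ± 0.13, adjusted p = 4.48e-05) and rose with PGE2 alone (0.43 ± 0.14, adjusted p = 0.0351). The call for PGE2 alone did not hold without any 1 of 5 of the 7 libraries compared (adjusted p = 0.0613 to 0.162). It was lost with quantile normalisation (adjusted p = 0.0926). In Hdac5, an intronic peak rose with PGE2 in both states, from 206 ± 26.9 to 314 ± 19.8 unstimulated and from 168 ± 21.4 to 296 ± 26.7 stimulated (log2 0.62 ± 0.14, adjusted p = 0.00136, and 0.82 ± 0.13, adjusted p = 2.58e-06).

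Hdac9 had 0 higher and 4 lower of 7 peaks on stimulation, and its peaks answered PGE2 differently. The intronic peak at chr12:34248497-34250017 fell from 203, 164, 217 and 201 to 87.0, 114, 106 and 90.2 with stimulation and had 231, 204, 168 and 189 with PGE2, overlapping the unstimulated libraries (log2 -0.98 ± 0.14, adjusted p = 1.66e-07, then 0.99 ± 0.14, adjusted p = 3.67e-07). The intronic peak at chr12:34783402-34784365 had 199, 208, 176 and 174 in untreated and 102, 84.1 and 124 in PGE2-treated unstimulated WT libraries, and 115, 127, 78.5 and 77.2 with stimulation. Both treatments lowered it (log2 -0.88 ± 0.19, adjusted p = 9.94e-04 for PGE2, -0.95 ± 0.18, adjusted p = 2.07e-05 for stimulation), and PGE2 in stimulated cells was not called (-0.16 ± 0.18, adjusted p = 0.5). A weaker intronic Hdac9 peak fell with PGE2 alone from 67.7 to 33.2 (log2 -1.0 ± 0.26, adjusted p = 0.00522).

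Few peaks of the class I deacetylases were called. These genes (Hdac1, Hdac2, Hdac3, Hdac8), the core of the nuclear co-repressor complexes, had 1 higher and 0 lower of 5 peaks on stimulation and 0 higher and 1 lower with PGE2, both at the promoter of Hdac3 (log2 0.28 and -0.19). The PGE2 change fell short of the threshold without any 1 of 7 of the 8 libraries compared (adjusted p = 0.0532 to 0.117). The call did not hold with quantile normalisation (adjusted p = 0.0793). Class IIb and IV genes had 0 higher and 4 lower of 6, then 1 higher and 0 lower. An intergenic peak of Hdac11 fell from 132 ± 17.9 to 51.2 ± 15.2 with stimulation (log2 -1.38 ± 0.26, adjusted p = 2.39e-05), and with PGE2 it was 75.7 ± 5.33, a change not called (0.59 ± 0.26, adjusted p = 0.0683). With a replicate block (log2 0.59, adjusted p = 0.0256) it was called, as it was with quantile normalisation (adjusted p = 0.0462) or with only the groups compared in the fit (adjusted p = 0.0199). In this comparison same-numbered libraries deviated together, by correlations that some differently numbered libraries also reached. The promoter of Hdac6, a cytoplasmic deacetylase, changed by log2 -0.51 on stimulation and 0.28 with PGE2. The PGE2 call was lost without any 1 of 5 of the 8 libraries compared (adjusted p = 0.0691 to 0.135). With quantile normalisation (adjusted p = 0.0528) the call was lost.

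SWI/SNF subunits had 11 higher and 21 lower of 61 peaks on stimulation of WT cells, 12 and 16 in KO cells, 16 and 9 with PGE2 during stimulation and 8 and 0 with PGE2 alone. In the same order, 28.9% and 27.4%, 28.1% and 26.4%, 20.2% and 20.4%, and 10.9% and 4.03% of all peaks were called. Arid1b, the subunit with the most peaks, had 7 higher and 13 lower of 33 on stimulation and 12 higher and 3 lower with PGE2. An intergenic peak at -85.8 kb from its promoter peak (chr17:4907820-4909016) had 309, 322, 244 and 303 without stimulation, 729.6, 644, 834 and 771 with it and 348, 426, 451 and 459 with PGE2. Stimulated libraries were well above the rest (log2 1.34 ± 0.11, adjusted p = 5.26e-13, then -0.82 ± 0.11, adjusted p = 1.53e-07). An Arid1b intron at 171.2 kb (chr17:5165033-5165774) had 63.6, 86.5, 60.9 and 90.8 untreated and 144, 124 and 145 with PGE2 in unstimulated WT cells. It belonged to the peaks raised by PGE2 alone (log2 0.88 ± 0.18, adjusted p = 3.78e-04), with a change in KO cells of -0.39 ± 0.18, adjusted p = 1 and a difference between genotypes of 1.27 ± 0.25, adjusted p = 9.46e-04.

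Arid1a, the alternative to Arid1b in the BAF form of the complex, had an intronic peak (chr4:133706383-133708017) with 700.3, 620.0, 535 and 608 in untreated unstimulated WT libraries, 455, 457, 426 and 487 after stimulation and 959, 801, 771 and 759.9 after stimulation with PGE2. PGE2 raised it above every untreated WT library of either state (log2 -0.43 ± 0.09, adjusted p = 1.31e-04 for stimulation, 0.84 ± 0.09, adjusted p = 1.82e-09 for PGE2). An exonic Arid1a peak rose both with PGE2 alone, to 339 ± 4.73 from 259 ± 18.7 (log2 0.39 ± 0.09, adjusted p = 0.00236), and with stimulation (0.58 ± 0.08, adjusted p = 2.90e-07). Arid2, of the PBAF form, held 2 introns that moved in opposite directions. The first (chr15:96315380-96316267) went from 49.9 ± 12.9 to 143 ± 22.6 with stimulation and 50.5 ± 9.54 with PGE2 (log2 1.53 ± 0.20, adjusted p = 5.13e-08, then -1.49 ± 0.20, adjusted p = 2.40e-07). The second (chr15:96376736-96378097) went from 381 ± 49.9 to 281 ± 50.8 and 589.8 ± 118 (log2 -0.45 ± 0.13, adjusted p = 0.00305, then 1.07 ± 0.13, adjusted p = 1.75e-08).

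Smarca2 and Smarca4 encode the alternative ATPases of SWI/SNF. An intronic peak of Smarca2 (BRM) fell from 231 ± 30.7 to 114 ± 21.1 with stimulation and had 198 ± 26.9 with PGE2 (log2 -1.01 ± 0.17, adjusted p = 3.74e-06, then 0.80 ± 0.17, adjusted p = 2.53e-04). Another Smarca2 intron rose with stimulation (log2 0.91 ± 0.22, adjusted p = 5.47e-04) and with PGE2 alone (0.81 ± 0.24, adjusted p = 0.0146). Leaving out PGE2-treated unstimulated WT replicate 4 (adjusted p = 0.136) or untreated unstimulated WT replicate 3 (adjusted p = 0.0721) ended the call for PGE2 alone. With quantile normalisation (adjusted p = 0.0582) it was not called. Smarca4 (BRG1) had 1 peak, its promoter (chr9:21615519-21616855), with 931 to 1032 counts in untreated unstimulated WT libraries and 869 to 957 with stimulation, which overlap. It was lower with PGE2 during stimulation, at 763 to 849 (log2 -0.23 ± 0.09, adjusted p = 0.0344). This was not called without any 1 of 6 of the 8 libraries compared (adjusted p = 0.0586 to 0.0809). The 3 peaks of the ISWI-type ATPases gave 0 higher and 1 lower on stimulation and no call with PGE2.

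The other ARID genes, DNA-binding proteins outside SWI/SNF, had 8 higher and 9 lower of 28 peaks on stimulation and 7 higher and 3 lower with PGE2. Of all peaks 28.9% and 27.4%, then 20.2% and 20.4%, were called. Arid4a, a subunit of a SIN3 co-repressor complex, had an exonic peak (chr12:71039938-71041040) with 353, 347, 381 and 339 in untreated unstimulated WT libraries, 117, 98.9, 87.2 and 102 with stimulation and 241, 293, 240.5 and 210.3 with PGE2. Stimulation lowered it by log2 -1.81 ± 0.19, adjusted p = 1.47e-10 and PGE2 raised it again by 1.27 ± 0.19, adjusted p = 8.03e-07. An intergenic peak of Arid3b rose by 2.29 ± 0.28, adjusted p = 9.13e-09 and fell with PGE2 (log2 -1.42 ± 0.28, adjusted p = 1.00e-04). An intron of Arid5b, with 759, 831, 816 and 896 in stimulated WT libraries and 1598, 1577, 1369 and 1319 with PGE2, rose by log2 0.82 ± 0.10, adjusted p = 2.50e-08 and was not called on stimulation (-0.15 ± 0.10, adjusted p = 0.21).

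Arid5a, an RNA-binding protein that stabilises cytokine transcripts, gave the largest PGE2 change without stimulation among the 302 peaks. Its intergenic peak 17.1 kb from the promoter peak (chr1:36325326-36326454) had 87.9, 83.6, 99.2 and 115 in the 4 untreated unstimulated WT libraries, 456, 572 and 501 with PGE2, 519, 384, 555 and 557 with stimulation and 926, 762, 849 and 771 with both. Untreated unstimulated libraries were the lowest and those with both treatments the highest, without overlap between neighbours other than PGE2 alone and stimulation alone. The log2 changes were 2.396 ± 0.23, adjusted p = 5.92e-10 for PGE2 alone, 2.37 ± 0.22, adjusted p = 6.15e-12 for stimulation and 0.73 ± 0.22, adjusted p = 0.00643 for PGE2 during stimulation. The PGE2 effect was smaller with stimulation than without by -1.67 ± 0.32, adjusted p = 1.48e-04. Unstimulated KO libraries had 77.0, 209 and 141 untreated and 117, 129.9, 220.4 and 181 with PGE2, which overlap, and the genotypes differed in the PGE2 effect by 2.14 ± 0.33, adjusted p = 2.72e-05. The stimulated untreated KO libraries were uneven, at 495, 411, 884 and 695, the 2 lower ones being those with the fewest reads. The Arid5a promoter peak (chr1:36307305-36310187) moved otherwise, from 2611, 2650.2, 2520.3 and 2592 to 1929, 1919, 1802 and 1725 with stimulation and 2628, 2622, 2524 and 2356 with PGE2 (log2 -0.49 ± 0.08, adjusted p = 3.60e-06, then 0.46 ± 0.08, adjusted p = 2.59e-05).

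Among bromodomain genes, an intronic peak of Brd3 fell with stimulation from 236 ± 19.7 to 110.0 ± 11.0 (log2 -1.097 ± 0.13, adjusted p = 1.52e-09) and was not called with PGE2 (0.27 ± 0.13, adjusted p = 0.083). The BRD genes outside the BET subfamily had no call on stimulation among 4 peaks.

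The CHD remodellers had 18 higher and 17 lower of 69 peaks on stimulation, 11 higher and 10 lower with PGE2 and 7 higher and 1 lower with PGE2 alone. Of all peaks 28.9% and 27.4%, 20.2% and 20.4%, and 10.9% and 4.03% were called, and each share of the CHD list was below these. An intron of Chd9 (chr8:90876108-90877972) had 322, 312, 318 and 257 without stimulation, 1172, 1061, 1004 and 967 with it and 499, 459.6, 463 and 495 with PGE2, and the 3 groups were well apart (log2 1.80 ± 0.09, adjusted p = 1.32e-19, then -1.13 ± 0.09, adjusted p = 5.40e-13). Chd7, mutated in CHARGE syndrome, had 12 higher and 8 lower of 34 on stimulation, and its distal peaks show the spread within 1 gene. At 270.5 kb from the promoter peak an intergenic peak was close to shut without stimulation, 11.0, 3.89, 2.95 and 20.3, and had 81.0, 54.2, 53.1 and 62.5 with it and 8.95, 15.6, 19.4 and 14.96 with PGE2 (log2 2.91 ± 0.36, adjusted p = 7.91e-09, then -2.04 ± 0.36, adjusted p = 1.46e-05). At 253.0 kb the change was reversed, from 369 ± 40.9 to 189 ± 14 and 302 ± 6.00 (log2 -0.96 ± 0.14, adjusted p = 1.82e-07, then 0.68 ± 0.14, adjusted p = 1.20e-04). At 153.0 kb an intronic peak was not called on stimulation (0.04 ± 0.08, adjusted p = 0.709) but rose with PGE2 in both states, from 276, 332, 278 and 348 to 468, 435 and 455 unstimulated (log2 0.56 ± 0.09, adjusted p = 1.78e-05) and from 356, 312, 285 and 313 to 470.2, 447, 427 and 449.6 stimulated (0.51 ± 0.08, adjusted p = 7.64e-06). The promoter of Chd4, the NuRD ATPase, changed by log2 0.49 on stimulation and -0.45 with PGE2.

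Chd3, another NuRD ATPase, was lower at its promoter (chr11:69366024-69369204) with PGE2 in both states. Unstimulated WT libraries had 2384, 2154, 1998 and 1785 untreated and 1456, 1722 and 1363 with PGE2 (log2 -0.46 ± 0.12, adjusted p = 0.00461), and stimulated ones had 1921, 1922, 1711 and 1591 and 1440.5, 1492, 1240.2 and 1258 (log2 -0.40 ± 0.11, adjusted p = 0.00312). The PGE2-treated libraries were below the untreated in each state. Chd5, a member of the same subfamily, had an intronic peak opened by stimulation (log2 3.24 ± 0.57, adjusted p = 6.69e-06) and lowered by PGE2 (-1.61 ± 0.57, adjusted p = 0.0209). The PGE2 call did not hold without PGE2-treated stimulated WT replicate 3 (adjusted p = 0.0809). A low Chd2 intron rose with stimulation (log2 2.09 ± 0.31, adjusted p = 3.35e-07) and with PGE2 alone (1.14 ± 0.33, adjusted p = 0.015). The change with PGE2 alone fell short of the threshold without PGE2-treated unstimulated WT replicate 3 (adjusted p = 0.104) or untreated unstimulated WT replicate 1 (adjusted p = 0.06).

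PGE2 without stimulation moved fewer of these regions: 25 were higher and 7 lower in unstimulated WT cells, 8.28% and 2.32% of the 302, where 10.9% and 4.03% of all peaks were called. With quantile normalisation the split was 17 higher and 11 lower. Promoters accounted for 2 of the calls, where 2.2% of all promoters were called higher and 2.49% lower: higher at Brd3os (log2 0.53 ± 0.13, adjusted p = 0.00419) and lower at Chd3. The higher peaks lay in 14 genes that had no lower call, with 6 in Arid1b, 5 in Chd7 and 3 in Hdac4, and the lower ones in 6 genes that had no higher call. Besides those described, an intron of Chd7 (log2 1.099 ± 0.21, adjusted p = 1.52e-04) and an exon of Chd1 (1.03 ± 0.25, adjusted p = 0.0034) were among the largest rises, and an exon of Arid3a fell (-0.67 ± 0.23, adjusted p = 0.0438). The Arid3a call was lost without any 1 of 4 of the 7 libraries compared (adjusted p = 0.0885 to 0.19). The call did not hold with quantile normalisation (adjusted p = 0.066) or a replicate block (adjusted p = 0.0641). Of the 25 higher peaks, 13 (52.0%) were also raised by PGE2 in stimulated WT cells, which is 20.6% of the 63 raised there, and 2 were lowered. For all peaks raised by PGE2 without stimulation the share was 50.9%. In unstimulated KO cells PGE2 changed 0 of the 302 peaks by limma, edgeR or DESeq2, against 0% of all peaks, and at an unadjusted p under 0.05 they gave 17, 15 and 12. The PGE2 effect differed between WT and KO unstimulated cells at 13 peaks higher in WT and 4 lower, against 4.94% and 1.24% of all peaks, and DESeq2 gave 13 and 7. That count of 17 was 9 without PGE2-treated unstimulated KO replicate 2, 10 without untreated unstimulated KO replicate 3 or PGE2-treated unstimulated WT replicate 3, and 11 without untreated unstimulated WT replicate 1. In the same fits the count of 2381 over all peaks was 1886, then 1693 and 1725, and then 1957.

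The PGE2 effect in WT cells itself depended on stimulation at 77 of the 302 peaks, 34 higher with stimulation and 43 lower, against 10.6% and 14.7% of all peaks. With quantile normalisation the split was 48 and 39. At the exonic Dnmt3a peak at 27.5 kb the PGE2 change was lower with stimulation by log2 -1.23 ± 0.11, adjusted p = 8.15e-10, and at Kdm6b's exonic peak by -0.68 ± 0.12, adjusted p = 4.10e-05. At the Arid4a exon it was higher by 1.25 ± 0.27, adjusted p = 7.81e-04. The comparison uses the untreated libraries of both states.

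Genotype alone, in untreated unstimulated cells, changed few of these regions: 0 peaks were higher and 4 lower in KO than in WT cells, where 1.09% and 0.636% of all peaks were called. The count of 4 was 1 without untreated unstimulated KO replicate 3 or untreated unstimulated WT replicate 1, 2 without untreated unstimulated WT replicate 2, and 2 with quantile normalisation. In these fits, in the same order, the count of 665 over all peaks was 245, 330, 390 and 307. An intron of Arid5b had 1043, 941, 879 and 811 in WT and 629.9, 636 and 714 in KO libraries (log2 -0.47 ± 0.11, adjusted p = 0.0154). Leaving out untreated unstimulated KO replicate 3 (adjusted p = 0.0947) or untreated unstimulated WT replicate 1 (adjusted p = 0.0805) ended the call. A second Arid5b intron had 376, 300.3, 344 and 308 and 186, 232 and 226 (log2 -0.63 ± 0.13, adjusted p = 0.0053). An intergenic Arid1a peak gave -0.997 ± 0.26, adjusted p = 0.0399. It was not called without any 1 of 5 of the 7 libraries compared (adjusted p = 0.069 to 0.227). With quantile normalisation (adjusted p = 0.0707) the call was lost. An Arid1b intron gave -0.46 ± 0.12, adjusted p = 0.0473. Leaving out any 1 of 6 of the 7 libraries compared (adjusted p = 0.077 to 0.261) ended this call. With peaks under a mean of 50 left out (adjusted p = 0.0503), quantile normalisation (adjusted p = 0.0919), edgeR (adjusted p = 0.0665) or only the groups compared in the fit (adjusted p = 0.1) it was not called.

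Other chromatin genes outside these families were set beside them, 286 peaks of 83 genes in 5 lists. Stimulation of WT cells opened 85 (29.7%) and closed 77 (26.9%) of them, PGE2 during stimulation raised 48 (16.8%) and lowered 53 (18.5%), and PGE2 alone raised 35 (12.2%) and lowered 10 (3.5%). The shares of all peaks were 28.9% and 27.4%, 20.2% and 20.4%, and 10.9% and 4.03%. Polycomb genes had 28 higher and 19 lower of 82 on stimulation and 7 higher and 22 lower with PGE2. Histone acetyltransferases had 7 and 5 of 24, then 3 and 3. Other histone methyltransferases had 16 and 20 of 55, then 8 and 7. Sirtuins and co-repressor subunits had 20 and 20 of 71, then 21 and 12, and other remodeller subunits 14 and 13 of 54, then 9 and 9.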

How the data were processed

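ATAC-seq was measured in 30 libraries of 8 groups. Trimmomatic 0.39 for trimming, Bowtie2 2.4.1 for alignment to mm10, MACS2 2.2.7.1 for peaks and DESeq2 (no version named) for normalisation are listed per the submitters' processing notes. Treatment of duplicates and any shift for the transposase cut, not given in the sources used here, could change peak heights and edges. The deposited table holds signal per peak and library, and from the values these are counts divided by 1 factor per library: whole reads were recovered for 100% of values in every library, within 0.05 of a read. One read is worth 0.663 to 1.66 normalised counts.

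The main test was limma 3.58.1 (R 4.3.3) on log2(normalised count + 1) with a mean-variance trend, 1 mean per group over all 30 libraries, two-sided. Peaks with a mean of at least 10 were tested, 38525 of 38526, with all 302 chromatin gene peaks among them, and Benjamini-Hochberg adjustment ran over all of them. Log2 changes are on this scale, which understates the change of low peaks. Alternatives were pseudocounts of 0.5 and 8, no filter, a mean of at least 50, quantile normalisation, edgeR 4.0.16 and DESeq2 1.42.0 on recovered reads, a replicate block, a fit of only the groups compared, and leaving out each library. On simulated counts with 50 changed peaks per fold size, the test recovered 17 at 1.5-fold, 45 at 2-fold and 50 at 3-fold. The changes were set in the PGE2-treated unstimulated WT group, with the same relative spread beyond counting noise at every peak. Far fewer peaks changed there than were called for PGE2 or stimulation in WT cells. These rates are therefore not the power of the reported tests. No 2 libraries were identical, and the highest correlation between libraries was 0.989.

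The members, role lists and tests were chosen with earlier results of these data known. The role lists (H3K4, H3K9, H3K27 and H3K36 demethylases, KMT2 and KMT5 methyltransferases, HDAC classes, SWI/SNF, ISWI-type, other ARID, DNA methyltransferase, TET, BRD and CHD genes), the 5 lists of other chromatin genes and the marker lists have their results in the report. Peaks were named if, in a comparison, they were called, reached a mean of 50 or more in the higher of the groups and showed groups that did not overlap, taking the 8 largest changes in each direction with 1 peak per gene. Added to these were the peak with the smallest p per role list and all peaks of Kdm6b, Hdac7, Arid5a, Dnmt3a, Tet2 and Smarca4. The promoter peaks listed with their log2 changes alone, and the 4 promoters whose sequence is shown, were picked after their values were seen. Results of 2 genes are not reported here, and totals over all peaks or lists still count them.

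Replicate numbers are shared between groups, without a label that ties them to a litter or a day. Same-numbered libraries deviated together (every pair's correlation above 0.1) for PGE2 in unstimulated KO (0.116 to 0.328), stimulated WT (0.118 to 0.206) and stimulated KO cells (0.221 to 0.526). In the other comparisons not every pair did, though 2 of 3 pairs did for stimulation in KO cells (up to 0.272). Differently numbered libraries of different groups reached 0.234, with 26 of 294 pairs above 0.1, which covers the range in stimulated WT cells.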

Additional observations from a re-analysis of the deposited data

Results flagged for a closer look

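Of 348 groups of 4 libraries at the 58 peaks described, 17 (4.9%) had 1 library set far from the other 3 (Dixon's test), and chance alone sets about 1 in 20 groups apart. The values in brackets are normalised counts. In the PGE2-treated stimulated WT group, replicate 2 was the highest at the intronic Dnmt3a peak at 48.5 kb (560.0), the highest at the intronic Arid2 peak at chr15:96315380-96316267 (64.7) and the highest at the Smarca4 promoter (849). In the untreated unstimulated WT group, replicate 3 was the lowest at the exonic Dnmt3a peak at 65.2 kb (18.7), and replicate 4 was the lowest at the intronic Chd9 peak (257). In the PGE2-treated stimulated KO group, replicate 1 was the highest at the intergenic Dnmt3b peak (66.9) and the highest at the intronic Arid1a peak (519). In the untreated stimulated WT group, replicate 4 was the lowest at the exonic Kdm2b peak (490.2), and replicate 1 was the highest at the intronic Hdac7 peak at -14.4 kb (356). In the PGE2-treated unstimulated KO group, replicate 3 was the highest at the intronic Hdac4 peak at -165.2 kb (31.4), and replicate 1 was the highest at the intergenic Arid1b peak (341). In the untreated stimulated KO group, replicate 2 was the lowest at the intronic Hdac4 peak at -116.2 kb (489) and the lowest at the intergenic Arid1b peak (599), replicate 1 was the lowest at the intergenic Hdac11 peak (41.2), the highest at the intronic Arid2 peak at chr15:96315380-96316267 (156) and the lowest at the intronic Brd3 peak (105), replicate 3 was the lowest at the intergenic Chd7 peak at 253.0 kb (137).

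At 52 of the described peaks and states the change with PGE2 was not the same in WT and KO cells, by limma's interaction term with adjusted p under 0.05; all values are log2, WT minus KO. Peaks were named in part by this term, so the count measures no excess. Over the 302 peaks the term was called at 5.63% without and 22.5% with stimulation, against 6.18% and 20% of all peaks. Without stimulation 12 of the described peaks differed. The effect was higher in WT by 0.76 at the exonic Kdm1a peak, 1.04 at the exonic Hdac4 peak, 0.41 at the intronic Hdac4 peak at -116.2 kb, 1.52 at the intronic Hdac4 peak at -93.9 kb, 0.87 at the intronic Hdac5 peak, 0.58 at the exonic Arid1a peak, 1.27 at the intronic Arid1b peak, 2.14 at the intergenic Arid5a peak, 1.06 at the intronic Smarca2 peak at chr19:26753212-26754179 and 0.50 at the intronic Chd7 peak. The 2 values below 0 were -1.15 at the intronic Hdac9 peak at chr12:34783402-34784365 and -0.58 at the Chd3 promoter. At the exonic Hdac4 peak the PGE2 change without stimulation was called in neither genotype. Normalised counts there were 69.3 to 91.4 untreated and 96.0 to 134 with PGE2 in WT, and 89.6 to 109 and 52.4 to 80.1 in KO libraries.

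With stimulation 40 differed. Along Dnmt3a, by distance from the promoter peak, the differences were -0.50 at 0.0 kb, -1.20 at 16.3 kb, -0.97 at 25.3 kb, -1.15 at 27.5 kb, -1.04 at 38.6 kb, -1.37 at 48.5 kb, -1.57 at 63.8 kb, -2.16 at 65.2 kb and -0.83 at 89.8 kb, with -1.28 at the Dnmt3aos promoter. Other differences below 0 were -0.55 at the Tet2 promoter, -1.03 at the intergenic Tet2 peak at 19.4 kb, -0.78 at the intergenic Tet2 peak at 39.0 kb, -0.54 at the exonic Kdm6b peak at -8.8 kb, -0.59 at the exonic Kdm6b peak at 0.0 kb, -0.47 at the intergenic Kdm6b peak and -1.61 at the intronic Kdm4c peak. To these add -0.78 at the exonic Kdm2b peak, -1.08 at the intronic Hdac4 peak at -165.2 kb, -0.58 at the intronic Hdac7 peak at -14.4 kb, -0.80 at the intronic Hdac7 peak at -9.7 kb, -0.68 at the intergenic Arid1b peak, -0.95 at the intronic Arid2 peak at chr15:96315380-96316267, -2.24 at the intergenic Chd7 peak at 270.5 kb and -1.01 at the intronic Chd9 peak. The effect was higher in WT by 0.88 at the intergenic Dnmt3b peak, 1.55 at the exonic Hdac4 peak, 0.66 at the intronic Hdac4 peak at -116.2 kb, 0.91 at the intronic Hdac4 peak at -111.0 kb, 1.72 at the intronic Hdac4 peak at -93.9 kb, 0.64 at the intronic Hdac5 peak, 0.99 at the intronic Hdac9 peak at chr12:34248497-34250017, 0.78 at the intronic Arid1a peak and 0.79 at the intronic Arid2 peak at chr15:96376736-96378097. It was also higher by 1.05 at the exonic Arid4a peak, 0.36 at the Arid5a promoter, 0.85 at the intronic Arid5b peak, 0.74 at the intronic Smarca2 peak at chr19:26645759-26646704, 0.40 at the intronic Chd7 peak and 0.57 at the intergenic Chd7 peak at 253.0 kb.

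Leaving out 1 library at a time kept 8 of the 12 unstimulated calls and 34 of the 40 stimulated calls in every fit. Without stimulation the exceptions were the Chd3 promoter (5 libraries, adjusted p = 0.0578 to 0.0896), the exonic Hdac4 peak (8 libraries, adjusted p = 0.0552 to 0.132), the intronic Hdac4 peak at -116.2 kb (6 libraries, adjusted p = 0.0517 to 0.0917) and the intronic Smarca2 peak at chr19:26753212-26754179 (10 libraries, adjusted p = 0.0639 to 0.176), of 14 libraries each. With stimulation they were the Arid5a promoter (7 libraries, adjusted p = 0.0506 to 0.0795), the intergenic Chd7 peak at 253.0 kb (9 libraries, adjusted p = 0.052 to 0.117), the exonic Dnmt3a peak at 89.8 kb (2 libraries, adjusted p = 0.0519 to 0.0563), the intronic Hdac4 peak at -165.2 kb (4 libraries, adjusted p = 0.0568 to 0.0643), the intronic Hdac7 peak at -14.4 kb (5 libraries, adjusted p = 0.0561 to 0.07) and the intronic Smarca2 peak at chr19:26645759-26646704 (7 libraries, adjusted p = 0.0513 to 0.0832), of 16 libraries each. Among the other alternatives, without stimulation, the call at the intronic Smarca2 peak at chr19:26753212-26754179 was lost with a pseudocount of 8 (adjusted p = 0.0548), quantile normalisation (adjusted p = 0.143), edgeR (adjusted p = 0.0647) and only the groups compared in the fit (adjusted p = 0.0707) and the call at the exonic Hdac4 peak was lost with quantile normalisation (adjusted p = 0.102). With stimulation, the call at the intergenic Chd7 peak at 253.0 kb was lost with quantile normalisation (adjusted p = 0.0589) and only the groups compared in the fit (adjusted p = 0.0762) and the call at the intronic Smarca2 peak at chr19:26645759-26646704 was lost with only the groups compared in the fit (adjusted p = 0.059).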

How the results depend on the processing

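The counts of chromatin gene peaks called kept within 1.5 times of their value under each alternative that used all libraries, except that quantile normalisation called 2 peaks for KO against WT in place of 4. No named value changed sign together with its call. With the replicate block the counts were 41 for PGE2 in unstimulated WT, 172 and 162 for stimulation in WT and KO, 132 for PGE2 in stimulated WT, 5 for KO against WT, 18 and 79 for the difference between genotypes in the PGE2 effect without and with stimulation, 87 for its dependence on stimulation, and 0 for the other 3 comparisons. The block also raised the counts over all peaks, from 5740 to 6694 for PGE2 in unstimulated WT and from 15619 to 16939 in stimulated WT. Stimulation calls over all peaks went from 21692 to 22776 in WT and from 21001 to 22018 in KO. Those for KO against WT went from 665 to 1016. Every same-numbered pair correlated above 0.1 only for PGE2 in unstimulated KO, stimulated WT and stimulated KO cells. In these 3 comparisons the block added calls for PGE2 in stimulated WT cells at the intergenic Hdac11 peak (adjusted p = 0.0256), the Hdac10 promoter (0.0341) and an exonic Kmt5a peak (0.0431), and changed no other call of a named peak. Leaving out 1 library at a time gave 24 to 35 for PGE2 in unstimulated WT, 151 to 163 and 142 to 155 for stimulation in WT and KO, 102 to 114 for PGE2 in stimulated WT, 1 to 5 for KO against WT, 9 to 17 and 62 to 71 for the difference between genotypes, 64 to 78 for the dependence on stimulation, and 0 for the other 3. Of the named peaks' values under alternatives that used all libraries, 9767 kept their side of the threshold, 111 gained a call and 33 lost their call; in the leave-one-out fits these were 10921, 87 and 304. The cause of these shifts was not tested. The stimulated KO groups and the untreated unstimulated KO group mix shallow and deep libraries, which limits what their low peaks can show.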
